A study of Mus musculus with 20 samples.

Results

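The 10 genes described here encode proteins by which glia, and astrocytes above all, act on synapses: the thrombospondins Thbs1, Thbs2 and Thbs4, the matricellular proteins Sparc and Sparcl1 (hevin), the glypicans Gpc4, Gpc5 and Gpc6, the BMP antagonist Chrdl1 (chordin-like 1) and the engulfment receptor Megf10. They were chosen by symbol from the table of counts, which held all 10 among its 39017 gene identifiers. Adult male C57BL/6 mice (C57BL/6J in the study's methods), 3 to 4 months old, underwent left craniectomy and then lateral fluid percussion injury (FPI), in which a pulse of fluid strikes the exposed dura, or sham injury, in which the mouse was connected to the device but no pulse was released. At 7 days, microglia (CD11b+, CD45 intermediate) and astrocytes (ACSA-2+) were sorted from the ipsilateral forebrain, and total RNA was sequenced from 5 sham and 5 FPI libraries of each cell type, 20 libraries in all. Every mouse, sham mice included, had the craniectomy and the anesthesia. Levels are given as CPM, counts relative to the total of the library on the TMM scale of the 20 libraries, and differences as log2 fold changes with their standard error (SE) from edgeR.

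Astrocyte thrombospondins and hevin promote the assembly of excitatory synapses, and Sparc opposes hevin. Glypicans are heparan sulfate proteoglycans anchored in the membrane by a lipid and shed from it. Gpc4 and Gpc6 recruit AMPA receptors to young synapses, and Chrdl1 favors the later switch in AMPA receptor subunits that matures the synapse. Megf10 is not secreted: it is a receptor on the astrocyte surface with which synapses are engulfed. Sparc and Thbs1 are also made outside astrocytes, by microglia, vascular cells and other cells of the body.

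The start regions of 3 of the genes are shown first, since these 3 carry the contrasts below. Sparc was the most abundant of the 10 in microglia. Thbs2 had a log2 fold change above 0.6 after FPI in both cell types without being called in either. Gpc4 was the 1 member called for a difference in FPI effect between the cell types. That call rested on few counts in microglia and was not made in every setting tried. Each sequence is the 250 bases before the RefSeq transcript start on GRCm38.p6, read 5′ to 3′ on the strand of the gene, which is the minus strand for all 3. The regions are chr11:55420081-55420330 for Sparc, chrX:52164924-52165173 for Gpc4 and chr17:14694263-14694512 for Thbs2. Capitals mark matches, on either strand, to any of 6 motifs that were searched: GAGGAA (the core bound by PU.1 and related ETS factors), TGANTCA (AP-1), TTCNNNGAA (STAT), the interferon response element (GAAA repeated after any 2 bases), CCAAT and TATAAA.
Sparc: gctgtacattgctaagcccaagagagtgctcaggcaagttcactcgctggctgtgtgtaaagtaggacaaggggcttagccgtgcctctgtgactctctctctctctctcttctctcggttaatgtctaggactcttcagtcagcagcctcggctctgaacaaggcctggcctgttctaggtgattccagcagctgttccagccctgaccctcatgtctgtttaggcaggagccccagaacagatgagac
Gpc4: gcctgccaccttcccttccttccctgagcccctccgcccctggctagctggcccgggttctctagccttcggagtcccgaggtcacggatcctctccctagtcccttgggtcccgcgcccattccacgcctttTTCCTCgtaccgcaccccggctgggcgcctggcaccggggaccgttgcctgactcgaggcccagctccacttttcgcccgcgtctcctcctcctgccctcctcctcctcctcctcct
Thbs2: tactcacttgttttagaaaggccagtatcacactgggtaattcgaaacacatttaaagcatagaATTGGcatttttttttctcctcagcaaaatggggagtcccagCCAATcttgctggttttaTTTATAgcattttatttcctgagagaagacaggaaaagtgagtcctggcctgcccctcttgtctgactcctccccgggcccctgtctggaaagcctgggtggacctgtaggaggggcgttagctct
The Sparc region held none of the 6 motifs. The Gpc4 region held 1 GAGGAA, written as its reverse complement, a motif found in 23.3% of 32851 mouse promoters of the same length. The Thbs2 region held 2 CCAAT, 1 on each strand, and 1 TATAAA on the opposite strand, against shares of 33.8% and 12.4% of promoters. The promoters of Thbs4 and Gpc5, also searched, each held 1 GAGGAA, and that of Gpc5 also held 1 TATAAA. No match is evidence of a bound site. The RefSeq starts of Sparc and Gpc4 lie inside the GENCODE genes, whose annotations begin further upstream. These genes span chromosome 11, 55394500 to 55423183, for Sparc and chromosome X, 52053021 to 52165252, for Gpc4. The Sparc and Gpc4 regions shown thus lie within the annotated genes.

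The sorted libraries carried their own lineage's markers. The summed CPM of 12 microglial markers lay between 18894 and 29087 in microglia and between 105 and 263 in astrocytes, and that of 12 astrocyte markers between 11140 and 34781 in astrocytes and between 248.9 and 638 in microglia, with no marker at 0 in any group. Total counts on genes ranged from 5623349 to 13110857 per library. Astrocyte libraries also carried transcripts of pericytes and smooth muscle (10 markers, 416 to 9978 CPM summed) and oligodendrocytes (10 markers, 1936 to 20647 CPM), at levels that varied from library to library. FPI astrocyte library 5 has a name that ends as those of microglia do and an animal number that library 2 of its group shares. It was kept with the astrocytes, where its title puts it. The labels do not state that every library came from a mouse of its own, so p-values measure the spread between libraries.

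**Figure D1:**
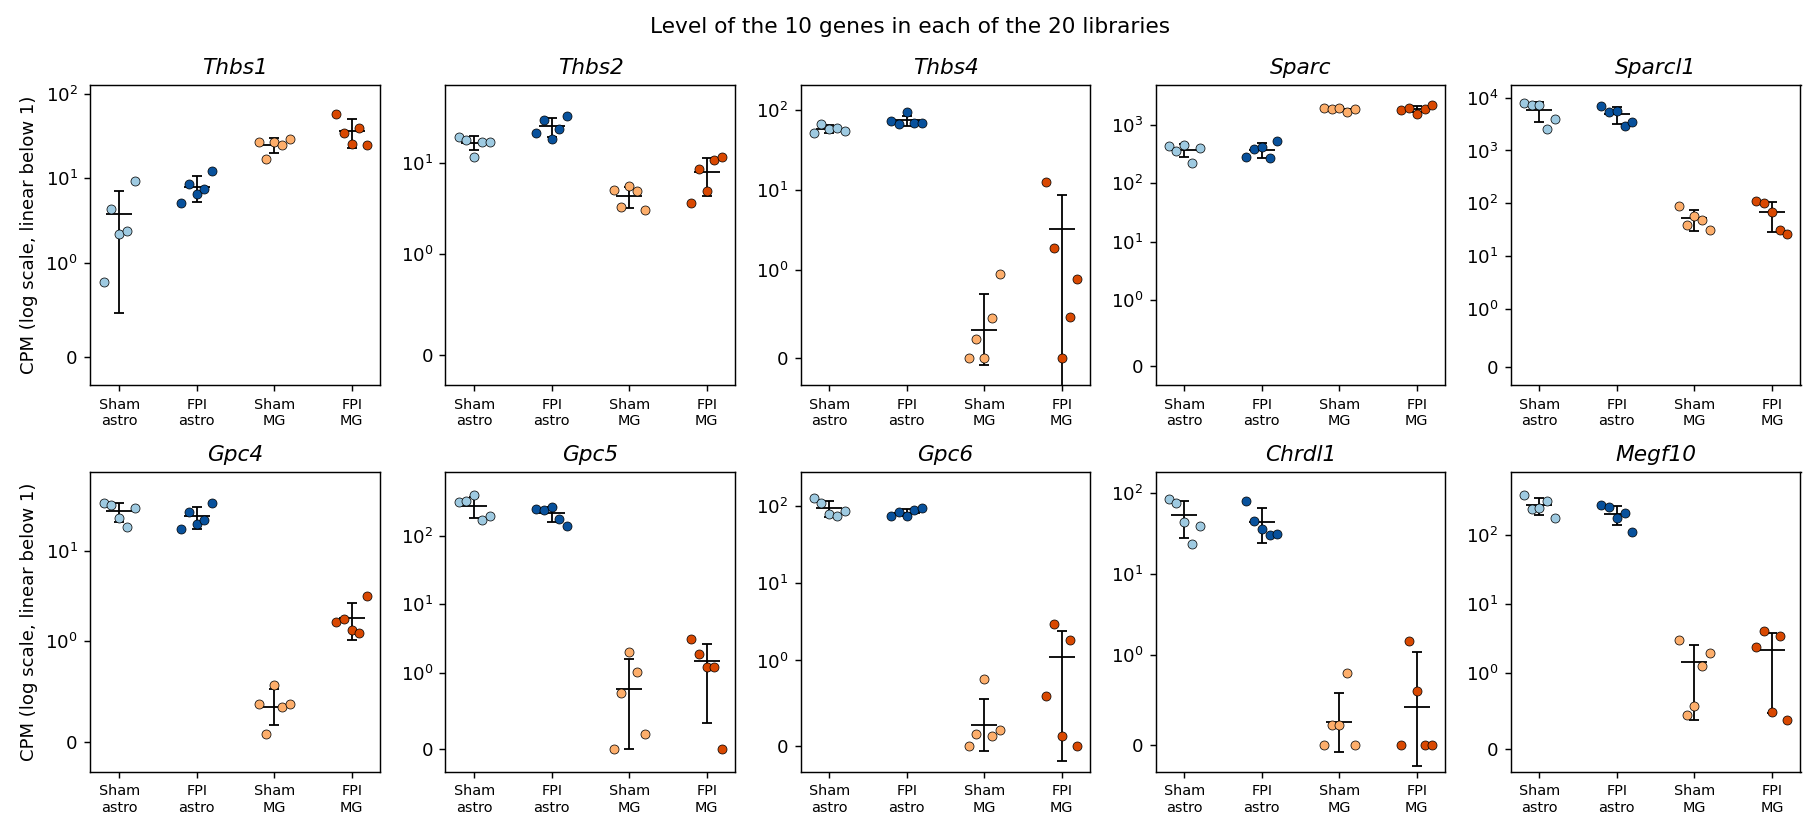
CPM of each of the 10 genes (log scale, linear below 1) in the 20 libraries, with the mean and SD of each group of 5. Astro stands for astrocytes and MG for microglia. Thbs1 and Sparc lie higher in microglia, the other 8 genes lie higher in astrocytes, and Gpc4 is the gene whose FPI microglia all lie above the sham microglia.

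Without injury, the 2 cell types divided the 10 genes between them. In sham mice 8 were higher in astrocytes and 2, Thbs1 and Sparc, were higher in microglia, and all 10 were called, which here means an adjusted p under 0.1 together with a log2 fold change of more than 0.6 in either direction (edgeR, highest adjusted p 1.2e-05). The 2 groups of 5 libraries did not overlap for any of the 10. This contrast is broad: 60.9% of all 15077 genes tested were called, 25.3% higher in microglia and 35.6% higher in astrocytes, and 23.0% had all sham microglia above all sham astrocytes and 29.1% all below. The median log2 fold change of the 10, microglia over astrocytes, was -7.17, against -0.15 over all genes. The median over all genes moved to -0.24 with RLE factors and to -0.29 in DESeq2, shifts that are small beside the values of the members.

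Sparc, a collagen-binding matricellular protein, was abundant in both cell types and 4.98-fold higher in microglia (log2 fold change 2.32, SE 0.21, edgeR adjusted p = 4.5e-09). Its level in sham microglia was 1966, 1869, 1959, 1647 and 1845 CPM in libraries 1 to 5, and in sham astrocytes 431, 350.3, 455, 222 and 405 CPM. The lowest microglia library stood well above the highest astrocyte library. Hevin, encoded by Sparcl1, went the other way, with a log2 fold change of -6.80 (SE 0.51, edgeR adjusted p = 2.71e-10). Sham astrocytes held 7942, 7127, 7299, 2570.0 and 4038 CPM of Sparcl1, and sham microglia held 87.3, 38.7, 56.7, 47.4 and 30.5 CPM. Libraries 4 and 5 were the low ones among the astrocytes. Per kb of exon, Sparcl1 made up between 92.8% and 96.3% of the pair in sham astrocytes and between 2.09% and 5.42% in sham microglia.

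The thrombospondins were split in the same manner. Thbs1, a large secreted glycoprotein that is also released by platelets, was 6.56-fold higher in microglia (log2 fold change 2.71, SE 0.43, edgeR adjusted p = 1.2e-05). Sham microglia held 27.1, 17.0, 27.1, 24.5 and 29.5 CPM of Thbs1, and sham astrocytes held 0.797, 4.35, 2.19, 2.36 and 9.35 CPM. The astrocyte values spread widely, and library 5 was the highest. Without sham astrocyte library 5, the log2 fold change of Thbs1 was 3.38. Thbs2 was present in both cell types and 3.82-fold higher in astrocytes, with 16.8 ± 2.94 CPM (SD, n = 5) against 4.36 ± 1.13 (log2 fold change -1.93, SE 0.30, edgeR adjusted p = 9.15e-06). Thbs4, the thrombospondin typical of mature tissue, stood at 57.5 ± 5.95 CPM in sham astrocytes and at 0.324 ± 0.396 in sham microglia, where 2 of the 5 libraries held no count (log2 fold change -7.63, SE 0.89). Per kb of exon, Thbs4 made up a median of 86.0% of the 3 thrombospondins in sham astrocytes, and Thbs1 a median of 84.8% in sham microglia.

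The glypicans, Chrdl1 and Megf10 were close to absent from microglia. Gpc5 stood at 274 ± 91.7 CPM (SD, n = 5) in sham astrocytes and 0.792 ± 0.798 in sham microglia, a log2 fold change of -8.33 (SE 0.60). For Gpc6 the means were 95.9 ± 22.4 and 0.247 ± 0.309 CPM (log2 fold change -8.52, SE 0.64), the largest difference of the 10. Gpc4 stood at 27.6 ± 6.69 CPM in sham astrocytes and at 0.345 ± 0.175 in sham microglia, a log2 fold change of -6.35 (SE 0.40). Chrdl1 stood at 52.6 ± 25.3 against 0.248 ± 0.325 CPM (log2 fold change -7.55, SE 0.73), and Megf10 at 272 ± 76.6 against 1.43 ± 1.06 CPM (log2 fold change -7.65, SE 0.56). The sham microglia level of the 8 astrocyte-enriched genes was between 0.257% and 26.03% of the sham astrocyte level, with a median of 0.545%. Thbs2 was the one far above the rest. For the 12 astrocyte markers, which microglia are not known to express strongly, the same share ran from 0.431% to 4.08%, with a median of 0.742%. Without Thbs2, the shares of the other 7 ran from 0.257% to 1.25%, and whether they stem from microglia or from astrocyte RNA in the sort was not tested.

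**Figure D2:**
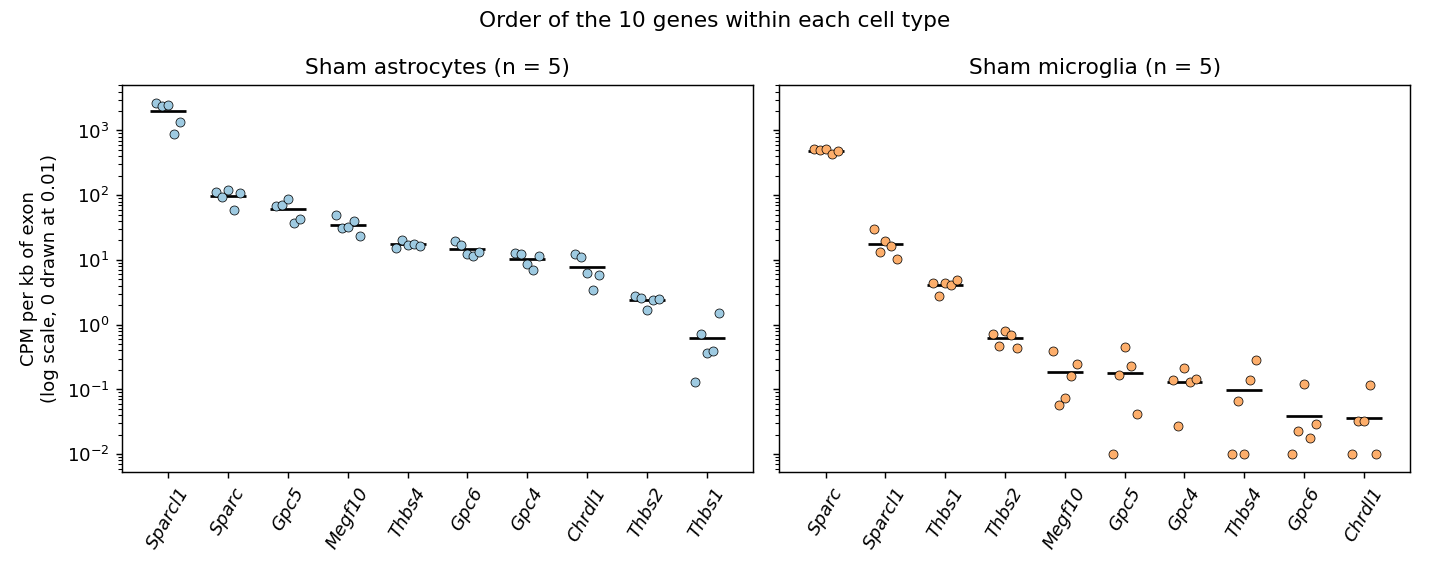
CPM per kb of exon (log scale, 0 drawn at 0.01) of the 10 genes in the 5 sham astrocyte and the 5 sham microglia libraries, with a bar at each mean, genes ordered by mean. Sparcl1 leads in astrocytes and Sparc in microglia, and Thbs1 is last of the 10 in astrocytes and next after Sparcl1 in microglia.

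Divided by exon length, the 10 genes could be ordered within a cell type. In sham astrocytes Sparcl1 led with a mean of 1973 CPM per kb, which placed it at rank 14 of 20958 genes with counts. Sparc (98.4 CPM per kb, rank 165), Gpc5 (61.6) and Megf10 (35.2) followed. Libraries of Sparc overlapped with those of Gpc5, and those of Gpc5 with those of Megf10. Thbs4 (17.5 CPM per kb), Gpc6 (14.9), Gpc4 (10.4) and Chrdl1 (7.78) formed a second run of neighbors with overlapping libraries. Thbs2 (2.39) and Thbs1 (0.628 CPM per kb, rank 14110) were the lowest, each clear of its neighbor. In sham microglia Sparc stood at 490.2 CPM per kb, rank 43 of 18960 genes with counts, above Sparcl1 (17.8), Thbs1 (4.13) and Thbs2 (0.623), which did not overlap with one another. The other 6 lay between 0.0366 and 0.185 CPM per kb and overlapped with their neighbors. The order in astrocytes was the same after FPI, with Sparcl1 at 1665 and Thbs1 at 1.31 CPM per kb. Lengths are those of all exons of a gene in GENCODE M21, and isoform use was not measured.

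At 7 days after FPI, none of the 10 genes was called in astrocytes, where 0.00728% of the 13741 genes tested, 1 gene, was called (edgeR). All 10 were tested, 4 had a higher and 6 a lower fitted level, and their median log2 fold change was -0.17 against -0.01 over all genes. At an unadjusted p below 0.05 there were 2 members, Thbs2 and Thbs4, both higher, where 1.57% of all genes were higher at that p and 0.750% were lower. DESeq2 also called none of the 10, and 39 genes in all. Over the other settings tried, 0 to 53 genes were called in astrocytes, none of them a member. The adjusted p of every member was 0.999.

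The 3 thrombospondins had the highest fold changes of the members in astrocytes. Thbs2 stood at 19.5, 18.2, 11.8, 16.9 and 17.3 CPM in sham astrocytes 1 to 5 and at 21.7, 29.5, 18.7, 23.9 and 33.1 CPM in FPI astrocytes. FPI library 3 lay within the sham range and the other 4 lay above it. The log2 fold change of Thbs2 was 0.63 (SE 0.20, 95% interval 0.19 to 1.07, edgeR adjusted p = 0.999). Thbs4 stood at 51.3, 66.8, 56.5, 58.9 and 53.8 CPM in sham and at 71.8, 65.5, 92.4, 68.7 and 68.4 CPM in FPI astrocytes. FPI library 2 was the one within the sham range, and library 3 was far above the other 4. Its log2 fold change was 0.38 (SE 0.14, 95% interval 0.07 to 0.69, edgeR adjusted p = 0.999). Thbs1 stood at 5.05, 8.64, 6.48, 7.39 and 12.3 CPM in FPI astrocytes. Sham libraries 1 to 4 lay below all FPI libraries, and sham library 5 lay among them. Its log2 fold change was 1.08 (SE 0.53, 95% interval -0.07 to 2.24, edgeR adjusted p = 0.999), and without sham astrocyte library 5 it was 1.73. That library held 7335 CPM of summed pericyte and smooth muscle markers and 832 CPM of summed fibroblast markers, the most of the sham astrocytes, and FPI library 5 held 9978 and 1507 CPM, the most of the FPI astrocytes. Thbs1 was highest of its group in both. The same libraries held the most summed endothelial (694 and 620 CPM) and ependymal markers (132 and 191 CPM) of their groups. Of oligodendrocyte markers, FPI library 5 held the least (3633 CPM) of the FPI astrocytes. With a term for the summed pericyte markers, chosen after seeing the data, the log2 fold change of Thbs1 was 1.28 and that of Thbs2 0.63. The part of pericytes and other cells in these values was not tested.

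**Figure D3:**
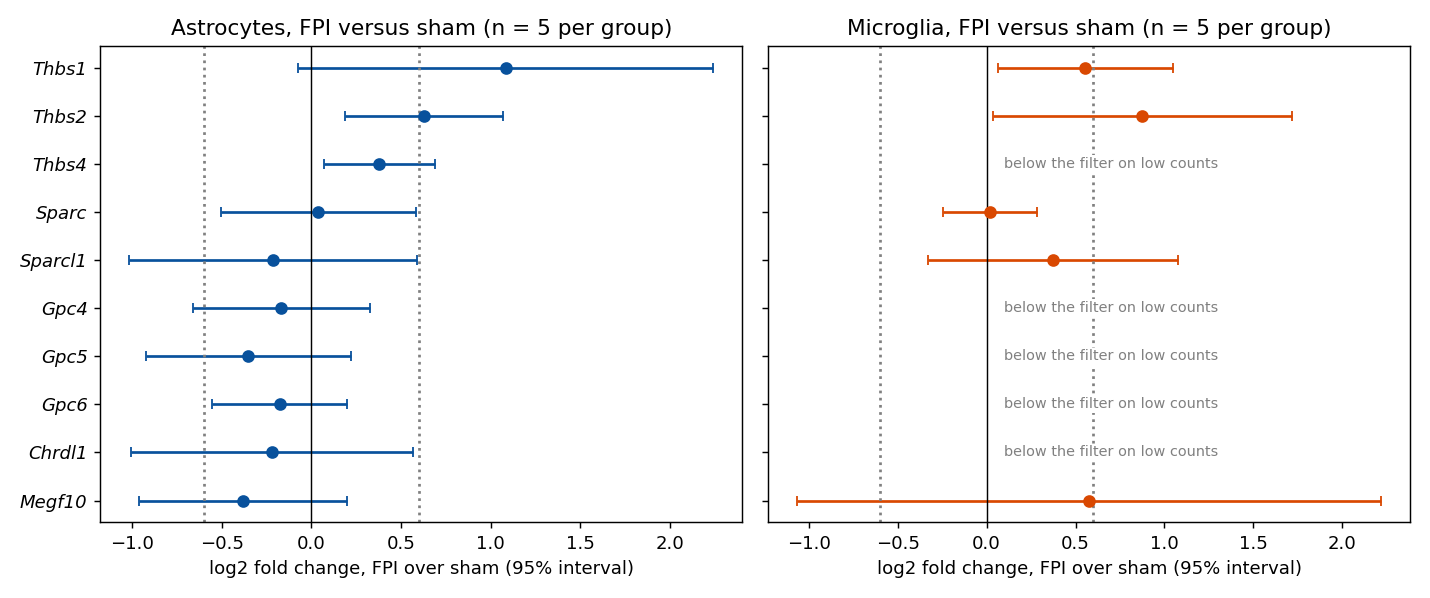
Log2 fold change, FPI over sham, with its 95% interval from edgeR, of each of the 10 genes in astrocytes and in microglia (5 libraries per group). Dotted lines mark the fold change threshold of 0.6, and 5 genes fell below the filter on low counts in microglia. The 3 thrombospondins have the highest values in astrocytes, and no gene was called in either cell type.

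The other 7 genes had log2 fold changes between -0.38 and 0.04 in FPI astrocytes, and each 95% interval included 0. Sparc was 0.04 (95% interval -0.50 to 0.58), Sparcl1 -0.21 (-1.02 to 0.59) and Gpc5 -0.35 (-0.92 to 0.22). The value was -0.17 (-0.66 to 0.33) for Gpc4, -0.18 (-0.55 to 0.20) for Gpc6, -0.22 (-1.004 to 0.57) for Chrdl1 and -0.38 (-0.96 to 0.20) for Megf10. Intervals of this width include changes as large as the 0.6 threshold for each of Sparcl1, Gpc4, Gpc5, Chrdl1 and Megf10. The biological coefficient of variation that edgeR estimated over all genes was 0.391 for astrocytes and 0.324 for microglia.

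Among the astrocyte libraries, some of the 10 genes varied with the astrocyte markers and others did not. The summed CPM of the 12 astrocyte markers was lower in replicates 4 and 5 of both groups (11140 to 17292) than in replicates 1 to 3 (21980 to 34781). The sum is unweighted, and Slc1a2 was its largest part. In sham astrocytes the mean of Slc1a2 was 11178 CPM and that of S100b, the smallest, 66.4 CPM. Sparcl1 differed 3.09-fold between its highest and lowest of the 10 astrocyte libraries. As a percentage of the summed markers, however, it stood between 20.3% and 26.6% in all 10, a 1.31-fold range, and its coefficient of variation was 8.99%, against 37.3% in CPM. Chrdl1 behaved alike, with a 3.57-fold range in CPM, a 1.69-fold range relative to the markers, and coefficients of variation of 45.7% and 16.6%. For Gpc5 the coefficient was 32.3% in CPM and 23.6% relative to the markers.

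**Figure D4:**
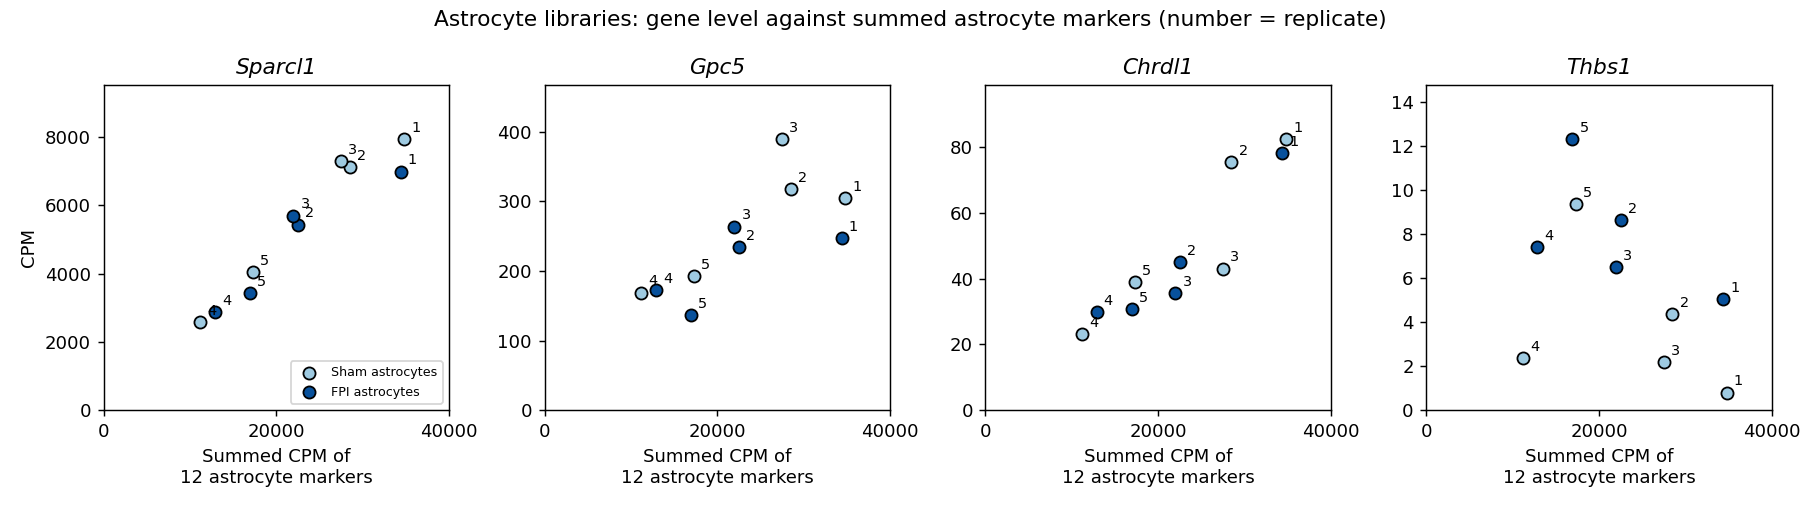
CPM of 4 of the genes against the summed CPM of 12 astrocyte markers in the 10 astrocyte libraries, numbered by replicate. Sparcl1, Gpc5 and Chrdl1 are low in the libraries with low markers, and Thbs1 is not.

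The other 7 genes were more variable relative to the markers than in CPM. Thbs4, Gpc6 and Gpc4 had coefficients of variation of 18.0%, 19.4% and 25.4% in CPM and of 41.7%, 36.1% and 38.3% as a percentage of the markers, so their levels stayed more even across the libraries than the markers did. Thbs1 had a 15.4-fold range in CPM and a 31.7-fold range relative to the markers. The mean of replicates 4 and 5 over that of replicates 1 to 3 was 0.479 for Sparcl1, 0.511 for Chrdl1 and 0.573 for Gpc5. It was 1.02 for Gpc4, 0.937 for Gpc6, 0.929 for Sparc, 0.927 for Thbs4, 1.15 for Thbs2 and 1.71 for Thbs1, with Megf10 between the 2 sets of genes at 0.774. The libraries of the 2 sets did not overlap for Sparcl1 and Gpc5. In bulk samples, fewer cells of a type and less RNA per cell cannot be told apart, and the part of cell makeup in these differences was not tested. A fit with a term for the summed astrocyte markers without Gfap, and one of replicates 1 to 3 alone, were chosen after seeing the data. In both, again 0 of the 10 genes were called for FPI.

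In microglia, 5 of the 10 genes passed the filter on low counts, and none of the 5 was called, where 2.35% of the 12143 genes tested were called (edgeR). Thbs1, Thbs2, Sparc, Sparcl1 and Megf10 were tested, while Thbs4, Gpc4, Gpc5, Gpc6 and Chrdl1 fell below the filter. Thbs1 and Thbs2 were higher at an unadjusted p below 0.05, where 7.47% of all genes were higher and 3.87% lower at that p. DESeq2, which fitted all 10 but gave no adjusted p for Gpc6 and Chrdl1, called Gpc4 and Thbs4, described below.

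Thbs1 stood at 57.9, 34.6, 25.5, 39.0 and 24.6 CPM in FPI microglia, against a sham range of 17.0 to 29.5. FPI libraries 1, 2 and 4 lay above the sham range, and the other 2 lay inside it. The log2 fold change of Thbs1 was 0.55 (SE 0.24, 95% interval 0.06 to 1.05, edgeR adjusted p = 0.345). Thbs2 stood at 5.00, 3.29, 5.60, 4.88 and 3.03 CPM in sham and at 3.62, 8.61, 4.94, 10.9 and 11.7 CPM in FPI microglia, so that FPI libraries 2, 4 and 5 lay above the sham range. Its log2 fold change was 0.88 (SE 0.40, 95% interval 0.04 to 1.72, edgeR adjusted p = 0.406). The difference between the FPI effects in microglia and astrocytes was -0.52 (95% interval -1.71 to 0.67) for Thbs1 and 0.26 (-0.59 to 1.10) for Thbs2.

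Of Sparc, FPI microglia held 1808, 1926, 1510, 1890 and 2170 CPM, and the log2 fold change was 0.02 (SE 0.13, 95% interval -0.25 to 0.28, edgeR adjusted p = 0.982). Its interval, among the members tested in microglia, was the narrowest. Sparcl1 stood at 112, 99.6, 69.02, 30.8 and 25.9 CPM in FPI microglia. Libraries 1 and 2 lay above the highest sham library and library 5 below the lowest. The log2 fold change of Sparcl1 was 0.37 (SE 0.34, 95% interval -0.33 to 1.08). With a term for the summed astrocyte markers without Gfap, chosen after seeing the data, it was -0.29. Megf10 had 3 to 32 counts per library in FPI microglia and a log2 fold change of 0.58 (95% interval -1.06 to 2.22).

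The names of the microglia libraries fall into 2 series, replicates 1 to 3 and replicates 4 and 5, and the values differed between them. Summed border macrophage and monocyte markers lay between 274 and 613 CPM in the first series and between 162 and 233 CPM in the second. Within the first series alone, the log2 fold change after FPI was 0.72 for Thbs1, 0.28 for Thbs2, -0.16 for Sparc and 0.60 for Sparcl1. Within the second it was 0.28 for Thbs1, 1.55 for Thbs2, 0.26 for Sparc and -0.41 for Sparcl1. Neither series called any of the 10 genes. With a term for the series, Thbs1 was 0.55 and Thbs2 0.79.

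Gpc4 was the one member called for a difference between the cell types in the FPI effect. Its counts in sham microglia were 3, 1, 5, 3 and 2, or 14 in all, and in FPI microglia 14, 14, 11, 8 and 25, or 72 in all. On the CPM scale these were 0.375, 0.0732, 0.560, 0.341 and 0.379 in sham and 1.63, 1.75, 1.33, 1.23 and 3.20 in FPI. All 5 FPI libraries lay above all 5 sham libraries, as they did for 1.37% of the 20485 genes with at least 1 count in microglia. In astrocytes Gpc4 stood at 34.3, 32.4, 23.1, 18.4 and 30.1 CPM in sham and at 17.4, 27.3, 19.8, 22.1 and 34.2 CPM in FPI, and the groups overlapped. The FPI effect in microglia minus that in astrocytes was 2.64 on the log2 scale (SE 0.51, 95% interval 1.59 to 3.69, edgeR adjusted p = 0.0324). Gpc4 was the 1 member called, where 0.199% of all genes were called and 0.0332%, 5 genes, were called in this direction. Gpc4 fell below the filter in microglia alone and entered this fit of 20 libraries through its astrocyte counts. It was called without each of the 20 libraries in turn, with adjusted p between 0.0301 and 0.0913. It was not called in limma-voom (adjusted p = 0.539 with the animal number as a random block), nor without the microglia libraries of the 3 animals that gave both cell types (log2 difference 2.51, adjusted p = 0.20).

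The level of Gpc4 in FPI microglia was low in absolute terms. It was 7.57% of the level in FPI astrocytes, against 1.25% in sham mice. For the 11 astrocyte markers without Gfap, the mean in FPI microglia was between 1.01 and 3.11 times the sham mean, with a median of 1.51. By the same measure Gpc4 stood at 5.29 times its sham mean, Gpc6 at 4.50 times, Thbs4 at 9.77 times with 1 library far above the rest, and Gfap, a marker of reactive astrocytes, at 6.69 times. The summed astrocyte markers in FPI microglia were 612, 638, 386, 317 and 299.96 CPM in libraries 1 to 5. The highest Gpc4 was in library 5, which had the least of these markers and no count of Gpc5, Gpc6 or Chrdl1. Libraries 1 and 4 held no count of Chrdl1 either. The marker sum is unweighted, and in microglia its largest parts were Slc1a3 and Slc1a2. Their means were 154 and 105 CPM in sham and 155 and 160 CPM in FPI microglia. Slc1a3 in sham microglia stood at 4.08% of its astrocyte level, the most of the 12 markers. With the filter loosened to 1 count over the libraries, the log2 fold change of Gpc4 in microglia alone was 2.38 (edgeR adjusted p = 0.38). With a term for the summed astrocyte markers without Gfap besides, chosen after seeing the data, the value was 2.41 (edgeR adjusted p = 0.411). The fit of all 20 libraries gave 2.44 (edgeR adjusted p = 0.00669), where 0.657% of genes were called higher, and DESeq2 gave 2.46 (adjusted p = 0.0685). The part of astrocyte RNA in the microglia values of Gpc4 was not tested.

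**Figure D5:**
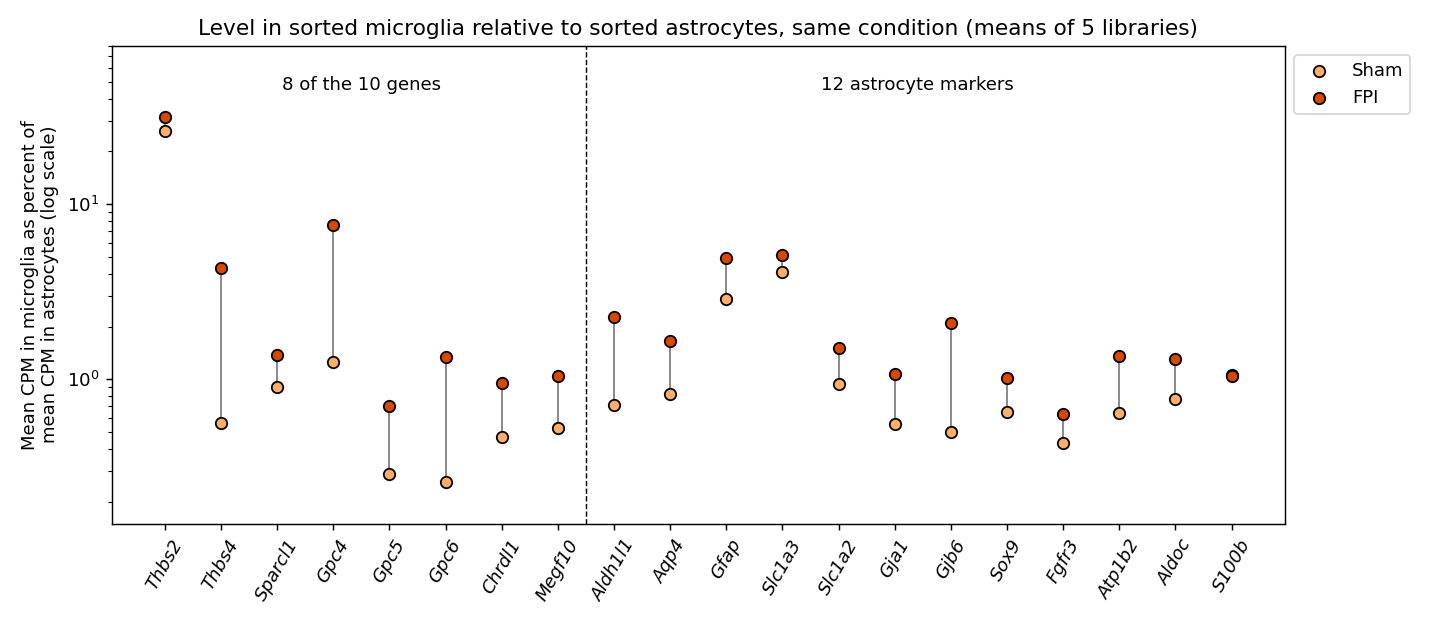
Mean CPM in microglia as a percentage of mean CPM in astrocytes of the same condition (log scale) for the 8 genes higher in astrocytes and for 12 astrocyte markers, in sham and FPI mice. Gpc4 lies at 1.25% in sham and 7.57% in FPI mice and Thbs4 at 0.564% and 4.32%, while the median of the 12 markers lies at 0.742% and 1.44%.

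Thbs4 in microglia rested on 1 library. FPI microglia 1 held 108 counts (12.6 CPM), and the other 4 held 1.87, 0, 0.462 and 0.897 CPM, against 0 to 0.947 CPM in sham microglia. By the animal numbers this library and FPI astrocyte library 3, the highest of the astrocytes in Thbs4, came from 1 animal. The FPI effect in microglia minus that in astrocytes was 3.14 for Thbs4 (SE 1.12, edgeR adjusted p = 0.514), and 1.15 without that library. In microglia alone Thbs4 was called by DESeq2 (log2 fold change 3.41, adjusted p = 0.0785), and by edgeR once the filter was loosened to 1 count over the libraries (3.36, adjusted p = 0.0889). It was not called by edgeR in the fit of all 20 libraries (3.49, adjusted p = 0.123). A term for the summed astrocyte markers without Gfap, chosen after seeing the data, was also tried. With it and the loosened filter the value of Thbs4 was 1.88 (edgeR adjusted p = 0.601). Gpc6 had a difference of 2.28 (SE 0.87, edgeR adjusted p = 0.569), from 0 to 7 counts per sham library and 0 to 24 per FPI library. With Gpc4 and Thbs4 it makes 3 members at an unadjusted p below 0.05, all with a positive difference, microglia minus astrocytes. Over all genes, 3.77% had a positive and 3.24% a negative difference at that p. These 3 members fell below the filter in microglia alone and entered the fit through their astrocyte counts. Gpc5 (1.22), Megf10 (1.05), Chrdl1 (0.92) and Sparcl1 (0.62) had positive differences whose 95% intervals included 0.

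The paralogs of the members, a list of 16 genes, held many called genes between the cell types and none after FPI. In sham mice 10 of 15 tested paralogs were called higher in astrocytes and 2, Comp and Gpc2, higher in microglia, where the shares of all genes were 35.6% and 25.3%. Comp is thus a second thrombospondin that was higher in microglia (3.60 ± 1.69 CPM, SD, n = 5, against 0.133 ± 0.297), and Gpc2 a glypican (18.5 ± 6.70 against 6.64 ± 3.18). Thbs3 (6.09 against 0.681 CPM) and the glypicans Gpc1 (53.0 against 0.172) and Gpc3 (29.8 against 0.0956) were higher in astrocytes. Neither cell type called a paralog after FPI, and the smallest p belonged to Gpc2 (log2 fold change 0.40) and Fstl1 (0.26) in astrocytes and to Comp (0.75) and Fstl1 (0.61) in microglia, with adjusted p between 0.681 and 0.999 (edgeR).

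The partners of the members at the synapse, 21 genes that include neuroligins, alpha2delta subunits of calcium channels and receptor phosphatases, held no called gene after FPI in either cell type (18 tested in astrocytes, 11 in microglia). In astrocytes the smallest p were those of Nlgn2 (log2 fold change 0.49, SE 0.23) and the neuronal pentraxin receptor Nptxr (0.66, SE 0.33), both with an adjusted p of 0.999 (edgeR). In microglia the receptor phosphatase gene Ptprs had a log2 fold change of -0.30 (SE 0.15).

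Of the 26 other glial signals acting on synapses, 1 was called after FPI. Apoe, the lipid carrier that supplies cholesterol to neurons, rose in microglia from 1841, 1295, 2162, 499.5 and 468 CPM in sham to 14016, 11734, 5143, 2224 and 4733 CPM in FPI libraries, without overlap of the groups, as for 2.17% of genes tested (log2 fold change 2.60, SE 0.46, edgeR adjusted p = 0.00278). In astrocytes the means were 7992 ± 2815 in sham and 7676 ± 1676 CPM in FPI, so that astrocytes held more of it than microglia in sham mice, while the FPI microglia mean was 7570 ± 5035 CPM (SD, n = 5). Ncan, a proteoglycan of the perisynaptic matrix, had the next smallest p in microglia (1.08, SE 0.44, adjusted p = 0.312). In astrocytes the smallest p belonged to Tnr, a matrix protein (log2 fold change 2.88, SE 0.64, edgeR adjusted p = 0.589), with 3.48 to 10.4 CPM in sham and 16.2 to 125 CPM in FPI libraries, and to Tgfb1 (0.84, SE 0.49). Tnr is also in the list of oligodendrocyte precursor markers, whose sum was highest, at 1513 CPM, in the FPI astrocyte library with the most Tnr. The part of these cells in the value was not tested.

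The engulfment genes were listed because Megf10 is an engulfment receptor. They held 3 called genes of 16 tested in microglia, where 2.35% of all genes were called. In astrocytes 0 of 18 were called, and 5 were higher at an unadjusted p below 0.05, as were 1.57% of all genes. In microglia the phagocytic receptor Axl rose to 252 ± 69.2 CPM (SD, n = 5), against 45.7 ± 12.8 in sham mice (log2 fold change 2.48, SE 0.22). Complement C3 rose from 5.19 ± 3.43 to 59.4 ± 40.8 CPM (3.55, SE 0.50) and C4b from 42.8 ± 18.1 to 170 ± 72.5 CPM (2.01, SE 0.30), and the highest adjusted p of the 3 was 0.00072 (edgeR). In astrocytes C4b stood at 121 ± 32.4 CPM in sham and 312 ± 78.3 in FPI libraries (1.39, SE 0.24, adjusted p = 0.151). C1qa there stood at 0.375 ± 0.461 and 9.64 ± 8.42 CPM (adjusted p = 0.429), while microglia held 1576 CPM of it in sham mice and the summed microglial markers were 105 to 183 CPM in sham and 128 to 263 CPM in FPI astrocytes. For the difference between the FPI effects, microglia minus astrocytes, 3 of the 18 were called, against 0.199% of all genes. The difference was positive for Axl (2.48, edgeR adjusted p = 0.00286). It was negative for C1qa (-4.59, edgeR adjusted p = 0.0214) and C1qb (-3.63, edgeR adjusted p = 0.068). The part of microglial RNA in the astrocyte values of the C1q genes was not tested. Megf10 itself was not called in these comparisons of FPI effects.

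The BMP pathway, on which Chrdl1 acts, held no called gene after FPI in astrocytes (18 tested) or microglia (9 tested). The smallest p were those of the ligand Bmp6 (log2 fold change 0.35, SE 0.21) and the transducer Smad5 (0.24, SE 0.16) in astrocytes, and of the target gene Id2 (0.50, SE 0.30) and Smad5 (-0.23, SE 0.14) in microglia, with adjusted p between 0.609 and 0.999 (edgeR). Between the sham cell types 11 of 18 tested were called higher in astrocytes and 3 in microglia, beside the same 35.6% and 25.3% of all genes. The medians of these lists in FPI versus sham lay between -0.09 and 0.05 in astrocytes and between 0.03 and 0.18 in microglia, against -0.01 over all genes in both.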

How the data were processed

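RNA-seq of sorted microglia and astrocytes was analysed from the table of counts the authors deposited, whole numbers of reads per gene with no normalization. Per the labels and the study's methods, libraries were made with a stranded total RNA kit for picogram input and aligned to GRCm38 with HISAT2 2.1.0, and the submitters' processing notes name featureCounts. The strand setting of the counting is not given in the sources used here. Without strand, reads in the 208 exon bases that Thbs1 shares with Gm29233 on the other strand, and in the 107 that Gpc5 shares with Gm20713, could not be assigned. Groups came from the titles. The members and gene lists were chosen with earlier results of these data known.

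The quasi-likelihood test of edgeR 4.0.16 (in R 4.3.3) was run on microglia and astrocytes separately, after edgeR's filter by group for low counts and TMM scaling. All 20 libraries were fitted together for the cell type contrast and for the difference in FPI effect. Benjamini-Hochberg adjustment covered all genes tested. Calls needed an adjusted p under 0.1 and a log2 fold change of more than 0.6 in either direction. CPM use TMM factors of the 20 libraries, and intervals are 95% intervals from the fit. A gene with 3 counts or fewer per library was taken as at the floor of detection. All 10 members were named, and of the other lists the called genes and otherwise the 2 of smallest p for FPI, with paralogs also named in the cell type contrast where both cell types held one.

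Positions and exon lengths came from GENCODE M21 (37607 of 39017 identifiers, 99.8% of counts). Promoters came from RefSeq, where 5 members were searched. The fits were tested on simulated data. Alternatives were DESeq2 1.42.0, RLE factors, other filters, robust empirical Bayes, a replicate block, other sets of libraries, terms for the name series, limma-voom (limma 3.58.1) and each library left out, and terms for summed markers were added after seeing the data. Tables were made with pandas 2.3.3 and scipy 1.17.1 in Python 3.11.15, and figures with matplotlib 3.10.9. 1 gene that the naming rule selects is not reported here. Histology was not used here.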

Additional observations from a re-analysis of the deposited data

Results flagged for a closer look

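Of 40 sets of 5 libraries, 10 genes in 4 groups, 5 held a library whose gap to the next exceeded 0.71 of the range (Dixon's test). Chance gives about 1 in 20 for independent sets of normally spread values. Here the genes share libraries, and the flagged microglia sets of Thbs4, Gpc4, Gpc6 and Chrdl1 held few counts in most libraries. An excess over that rate can therefore not be read from these sets. Thbs4 was 92.4 CPM in FPI astrocytes 3, where the next highest was 71.8. In FPI microglia 1 it was 12.6 CPM, where the next was 1.87. These are libraries of 1 animal by their numbers. Gpc4 was 3.20 CPM in FPI microglia 5, where the next was 1.75. Gpc6 was 0.784 CPM in sham microglia 3 and Chrdl1 0.795 CPM in sham microglia 4, both from 7 counts.

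The FPI effect on Gpc4 was called as different between the cell types by a test of the difference itself (2.64 on the log2 scale, edgeR adjusted p = 0.0324). Its counts were 14 in sham and 72 in FPI microglia. Gpc4 fell below the filter in microglia alone and entered that fit through its astrocyte counts. It was not called in limma-voom with the animal number as a random block (adjusted p = 0.539) or with no random block (adjusted p = 0.582), nor without the microglia libraries of the 3 animals that gave both cell types (edgeR adjusted p = 0.20).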

How the results depend on the processing

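Of 804 refitted log2 fold changes of members, 781 kept their direction and their side of the threshold. No alternative called a member in FPI astrocytes, and every member tested was called between the sham cell types except Thbs4 in DESeq2, which gave it no adjusted p. Microglia alone gave 2 called members in DESeq2 (Gpc4 and Thbs4), 1 with at least 1 count (Thbs4) and 1 with all 20 libraries in 1 fit (Gpc4), against 0 in the default fit, which tests neither gene. A filter of 10 counts in each library left 3 members between the sham cell types, all called, and 0 called members for the difference in FPI effect, where Gpc4 was not tested. For that difference 0 members were called in limma-voom with the animal number as random block (Gpc4 2.61, adjusted p = 0.539), in limma-voom with no random block (2.62, adjusted p = 0.582) and without the microglia libraries of the 3 animals sampled for each cell type (2.51, adjusted p = 0.20). The cause was not tested.

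Signs turned for Sparc, whose values were near 0, and for Sparcl1 and Chrdl1, whose intervals were wide. Sparc in FPI astrocytes was -0.076 with FPI libraries 2 and 5 summed and -0.17 with replicates 1 to 3 alone, and ran from -0.14 to 0.14 over single libraries left out. In FPI microglia it was -0.16 in the first name series, and ran from -0.063 to 0.10. Its difference in FPI effect was 0.061 with FPI astrocytes 2 and 5 summed, 0.0011 and 0.16 without the microglia or the astrocyte libraries of the 3 animals, and ran from -0.13 to 0.14. Sparcl1 in FPI microglia, 0.37 by default, was -0.41 in the second name series. It was -0.29 with at least 1 count and a term for the summed astrocyte markers without Gfap. The difference for Chrdl1, 0.92 by default, was -0.0016 in limma-voom with the animal block, and -0.43 without FPI microglia 2, in a range up to 1.80.

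Replicate numbers were not taken as pairs, since not every pair's correlation exceeded 0.1: the correlation of deviations between sham and FPI libraries of 1 number ran from -0.07 to 0.09 in microglia and from -0.01 to 0.45 in astrocytes, where 4 of 5 exceeded 0.1 and 3 of 5 libraries matched their own number best. With the replicate block 0 members were called in astrocytes and microglia, 10 between the sham cell types and 1 for the difference in FPI effect. Over single libraries left out, called members stayed at 0, 0, 10 and 1. Genes called in FPI microglia, 285, fell to 177 without sham microglia 2 or FPI microglia 2, and those for the difference, 30, rose to 48 without FPI astrocytes 3. Over the other settings the genes called were 0 to 53 in FPI astrocytes (1 by default, 11 with the block, 53 with all 20 libraries in 1 fit), 99 to 418 in FPI microglia and 1 to 188 for the difference. Counts were few in sham microglia, where Thbs4, Gpc4, Gpc6 and Chrdl1 had at most 7 in any library.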
